A study of Mus musculus with 24 samples.

Results

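The carboxylesterase genes described here are Ces1b, Ces1c, Ces1d, Ces1e, Ces1f, Ces1g, Ces2a, Ces2c, Ces2e and Ces3a. They are 10 of the 22392 genes in the table, and were taken by matching each Ensembl identifier to its symbol in the GENCODE M21 annotation of the mouse genome build GRCm38. All 10 passed the filter on low values (a mean normalised read count of at least 10 over all libraries), and 8 further carboxylesterase genes are in the table.

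Livers came from CD2F1 mice in 3 groups of 8. CT mice were injected as a sham, without tumour cells; C26 mice carried the transplanted C26 tumour, a mouse colon carcinoma that causes wasting, and were otherwise untreated; C26-CHO mice had that tumour too and ate a diet with 2% (w/w) cholestyramine, a resin that is not absorbed and binds bile acids in the intestine, from day 1 to day 10 after the cells were injected. Each library is from a separate mouse, numbered 1 to 8 in its group, and the labels give no batch, sex, age, food intake or tumour weight. The tumour is a single transplanted line, and no tumour-free group received the resin.

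Carboxylesterases are serine hydrolases of the endoplasmic reticulum, most of them made in large amounts by hepatocytes. They cut ester and amide bonds in drugs and environmental chemicals, and several also hydrolyse triacylglycerol, diacylglycerol or cholesteryl ester. In the mouse the family has expanded into tandem copies, so that neighbouring genes encode closely related enzymes.

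All 10 genes lie on mouse chromosome 8 (GRCm38). Ces1b to Ces1g are on the minus strand in a block that runs, with Ces1a, from position 93020214 to 93337308. Ces2a, Ces2c, Ces2e and Ces3a are on the plus strand in a second block that ends with Ces4a and runs from 104734003 to 105150109, with 11397 kb between the blocks. The transcripts of Ces1b and Ces1c were 91.4% identical over 1822 aligned bases, whereas Ces1c and Ces1d were 77.8% identical over 1821 bases.

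RefSeq promoter windows on build GRCm38.p6 were matched for 7 of the 10 genes (Ces1b, Ces1c, Ces1e, Ces1g, Ces2a, Ces2c and Ces2e), and the 250 bases before the gene start were compared. Over the 21 pairs, Ces1b and Ces1c shared the longest exact run, of 58 bases; in the other pairs the longest run was 7 to 17 bases. The windows of these 2 genes are shown because they were the only members called higher under cholestyramine, and those of Ces2a and Ces2e because they held the next longest run while their transcripts fell by very different amounts. Each is written 5′ to 3′ on the strand of the gene, with the longest run shared by the pair in capitals; Ces1b is at chr8:93080018-93080267 and Ces1c at chr8:93131284-93131533, both on the minus strand, and Ces2a is at chr8:104733753-104734002 and Ces2e at chr8:104926010-104926259, both on the plus strand.
Ces1b: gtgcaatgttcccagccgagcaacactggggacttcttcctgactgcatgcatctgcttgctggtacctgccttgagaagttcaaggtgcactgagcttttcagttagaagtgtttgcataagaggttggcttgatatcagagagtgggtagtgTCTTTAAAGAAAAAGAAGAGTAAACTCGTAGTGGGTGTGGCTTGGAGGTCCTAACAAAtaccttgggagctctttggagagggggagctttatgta
Ces1c: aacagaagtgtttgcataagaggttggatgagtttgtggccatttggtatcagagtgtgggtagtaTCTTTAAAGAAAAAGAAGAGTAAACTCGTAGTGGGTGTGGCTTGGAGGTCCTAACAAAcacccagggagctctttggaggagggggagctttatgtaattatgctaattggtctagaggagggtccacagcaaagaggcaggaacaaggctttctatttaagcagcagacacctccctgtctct
Ces2a: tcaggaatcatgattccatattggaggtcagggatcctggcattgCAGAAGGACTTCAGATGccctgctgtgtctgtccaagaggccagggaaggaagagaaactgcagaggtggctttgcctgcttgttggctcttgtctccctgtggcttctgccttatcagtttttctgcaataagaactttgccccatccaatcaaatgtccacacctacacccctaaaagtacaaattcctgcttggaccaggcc
Ces2e: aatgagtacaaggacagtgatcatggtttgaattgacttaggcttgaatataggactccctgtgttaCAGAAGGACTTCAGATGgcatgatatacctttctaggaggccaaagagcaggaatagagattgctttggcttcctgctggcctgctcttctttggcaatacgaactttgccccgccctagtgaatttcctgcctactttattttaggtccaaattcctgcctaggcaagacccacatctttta
The run began 96 bases before the start of Ces1b and 184 bases before that of Ces1c, so that the related stretch sits farther upstream in Ces1c. Both windows also held TTGCATAA upstream of the run, 136 bases before the start of Ces1b and 239 before that of Ces1c. This is a match to TTGCNNAA, the core letters bound by C/EBP factors, which was searched on both strands. It was found in 4 of the 7 windows (Ces1b, Ces1c, Ces2a and Ces2e) and in 9.57% of the 32817 RefSeq mouse windows of that length. TATAAA, the TATA box letters, was in the window of Ces1g alone among the 7, where the match was on the strand opposite to the gene, and in 12.4% of all windows. GTTAAT (HNF1, whose longer consensus was also searched and found in none of the 7), CAAAGTCCA (HNF4) and TTCNNNGAA (STAT) were in none of the 7 and in 6.44%, 0.384% and 7.01% of all windows for the 3 short motifs. These are matches of letters in short windows, not measured binding sites.

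Depth per library ranged from 19.91 M to 30.5 M reads over the 3 groups. The first principal component over all tested genes held 71.9% of the variance. CT livers lay between -83.15 and -75.36 on it and most tumour-bearing livers between 34.54 and 54.62. The libraries C26 8 (28.81), C26-CHO 7 (22.32) and C26-CHO 1 (-13.41) lay nearer to CT than any other tumour-bearing liver, and several results that rest on them are given with and without them. Summed markers of hepatocytes, all 10 of which were detected, ranged from 1684870 to 1950480 in CT, 801528 to 1036290 in C26 and 865390 to 1055660 in C26-CHO. Of the 10 markers, 2 were called higher and 5 lower in C26 vs CT, with a median log2 difference of -0.14. Markers of other cells were also called in C26 vs CT: 9 of 10 for Kupffer cells and macrophages were higher (median 0.80), as were 5 of 5 tested for neutrophils (median 3.68), and 7 of 10 for sinusoidal endothelial cells were higher and 1 lower (median 0.42). For cholangiocytes 4 of 7 tested were higher and 0 lower (median 0.43), while their summed value had a median of 750 in CT and 8275 in C26. A sum weighs the most abundant markers most. For stellate cells and fibroblasts 3 of 10 were higher and 1 lower. Lower were 3 of 3 tested for T and B cells (median -1.62) and 2 of 2 for intestinal epithelium (median -0.98). Of 5 tested for adipocytes, 0 were called. Over all tested genes, 33.3% were called higher and 32.9% lower. The part of these cells in the results was not tested. In bulk tissue, fewer hepatocytes and less RNA per hepatocyte cannot be told apart.

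In CT livers the 10 genes together took 0.802% ± 0.0486 (SD, n = 8) of all reads. Per kb of exon, Ces1c was the most abundant, at 24748 ± 2228 normalised reads per kb, followed by Ces3a at 18295 ± 1187. Ces1d (5298 ± 1185) and Ces1b (4838 ± 616) came next and overlapped between mice. Ces1e (3327 ± 254), Ces2a (3195 ± 360) and Ces1f (2923 ± 212) also overlapped with their neighbours in the order. Ces1g (1639 ± 153), Ces2e (1151 ± 147) and Ces2c (355 ± 84.4) followed without overlap. The exon length used joins the exons of all annotated transcripts of a gene, and the order depends on it. For Ces1f this length was 3285 bases, while the single transcript used for the sequence comparison had 1926.

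Tumour-bearing livers held much less mRNA of every one of these genes. In C26 vs CT, 10 of 10 were called lower (adjusted p from 5.14e-13 to 1.28e-09, limma), where 32.9% of all 14040 tested genes were called lower. For all 10, each C26 liver lay below each CT liver, which was so for 18% of tested genes. The median log2 fold change of the 10 was -5.06, beside 0.01 for all tested genes. A called log2 fold change of -4 or below was found for 6 of the 10 genes (Ces1d, Ces1e, Ces1f, Ces1g, Ces2a and Ces2c) and for 0.62% of tested genes. C26-CHO livers, compared with the same CT livers, also had 10 of 10 called lower (30.9% of tested genes) with a median of -4.15, and all 10 again without overlap (13.1% of tested genes).

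**Figure D1:**
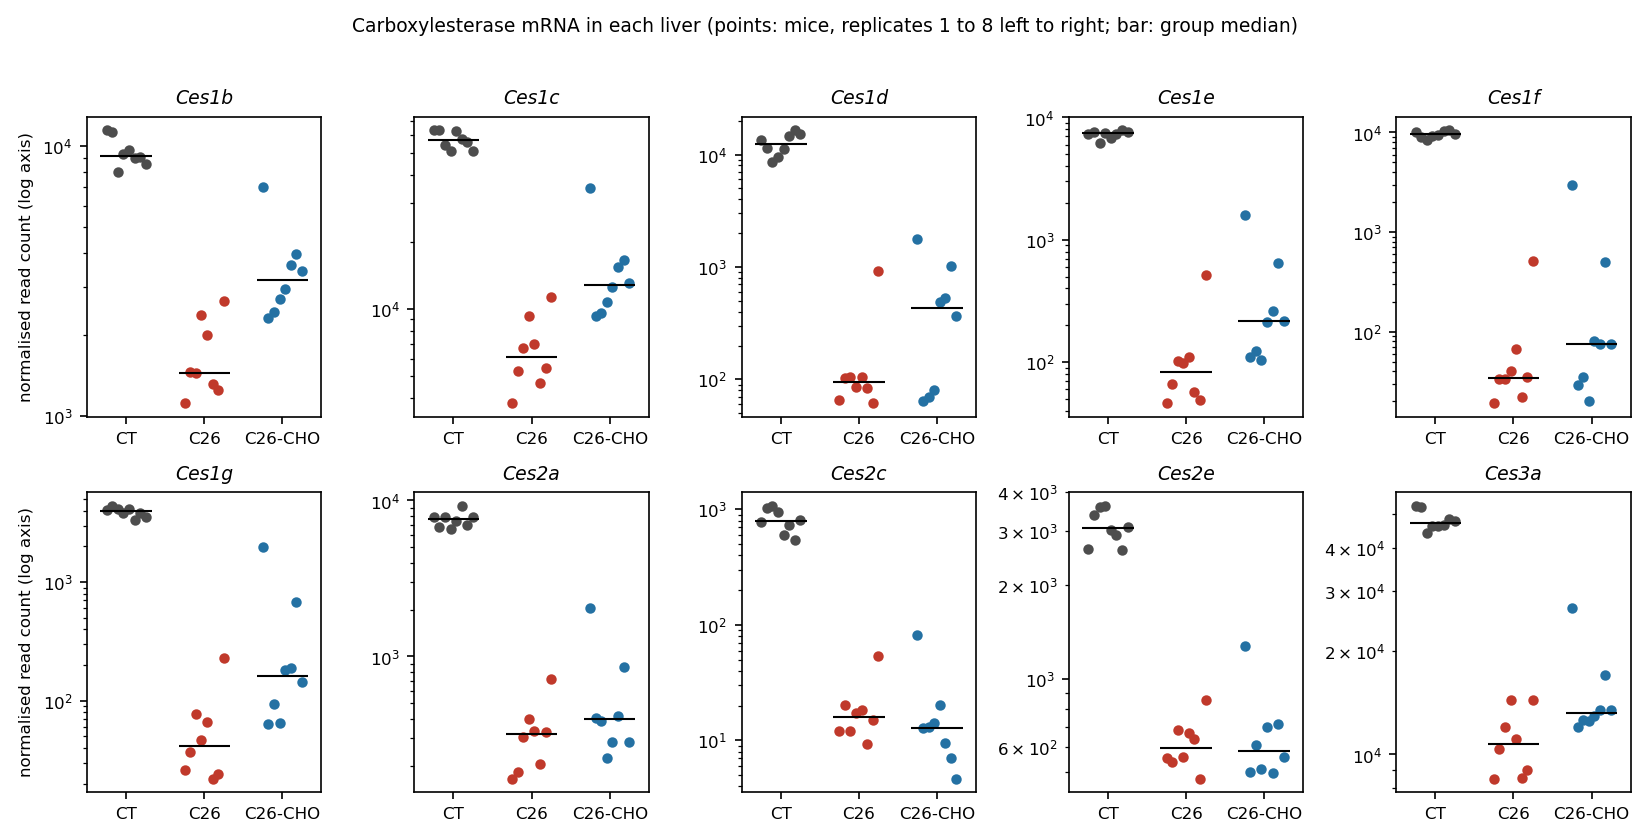
Normalised read count of each of the 10 carboxylesterase genes (log axes, 1 panel per gene) in CT, C26 and C26-CHO livers; points are mice and bars are group medians. No C26 or C26-CHO liver reaches the lowest CT liver for any of the 10 genes, and C26 8 and C26-CHO 1 sit above most others of their groups.

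In C26 vs CT the deepest falls of the 10 were in Ces1d, Ces1e, Ces1f and Ces1g, which lie side by side. In C26-CHO vs CT, Ces2c (-5.73) had a lower log2 fold change than Ces1d (-5.36), Ces1e (-4.83) and Ces1g (-4.28). Ces1d encodes triacylglycerol hydrolase, which mobilises stored fat for the assembly of very low density lipoprotein. Its normalised read count was 8520 to 16443 (median 12418) in CT, 61.2 to 929 (median 94.5) in C26 and 64.3 to 1766 (median 427) in C26-CHO. The C26 mean was 1.53% of the CT mean, and the log2 fold change was -6.72 ± 0.59 (SE) in C26 vs CT. Without C26 8, the highest of its group, the C26 mean was 0.693% of CT.

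Ces1f encodes a second triacylglycerol hydrolase of the hepatocyte. Its normalised read count was 8494 to 10531 (median 9576) in CT, 19.1 to 512 (median 34.1) in C26 and 20.1 to 2993 (median 74.7) in C26-CHO. Its log2 fold change of -7.64 ± 0.74 (SE) in C26 vs CT was the third lowest among the 14040 tested genes in the main fit, and 7 of 8 C26 livers lay between 19.1 and 66.6. Under the 11 other settings the fold change ranged from -8.13 to -6.64, with edgeR at the smaller end. The C26 mean was 0.991% of the CT mean, or 0.371% without C26 8.

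Ces1e encodes egasyn, which holds β-glucuronidase in the endoplasmic reticulum. It went from 6178 to 7864 (median 7437) in CT to 45.9 to 511 (median 82.1) in C26, and was 103 to 1589 (median 215) in C26-CHO. The log2 fold change in C26 vs CT was -6.30 ± 0.47 (SE), and the C26 mean stood at 1.78% of CT, or 1.03% without C26 8. Ces1g, known as esterase-x and as a lipid hydrolase that limits liver fat, was 3314 to 4413 (median 3958) in CT, 21.9 to 229 (median 41.7) in C26 and 63.5 to 1987 (median 163) in C26-CHO. Its log2 fold change in C26 vs CT was -6.31 ± 0.54 (SE), with a C26 mean of 1.69% of CT, or 1.09% without C26 8. For both genes, every tumour-bearing liver lay below every CT liver.

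Ces1b and Ces1c, at the other end of the same block, fell less. Ces1c encodes the carboxylesterase secreted into mouse plasma. Its normalised read count was 51155 to 63303 (median 56957) in CT, 3779 to 11323 (median 6069) in C26 and 9292 to 34985 (median 12801) in C26-CHO. The log2 fold change in C26 vs CT was -3.18 ± 0.22 (SE), and the C26 mean was 11.6% of CT. Ces1b ranged from 7965 to 11390 (median 9159) in CT, from 1116 to 2659 (median 1449) in C26 and from 2302 to 7058 (median 3184) in C26-CHO. Its log2 fold change in C26 vs CT was -2.54 ± 0.19 (SE), and the C26 mean was 17.9% of CT. Ces1b and Ces1c share 9.92% and 10.7% of their 50-base stretches with each other, so reads could have been divided between them in counting.

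Within the second block the falls were uneven too. Ces2a encodes a hydrolase of triacylglycerol and diacylglycerol in liver and gut. It was 6607 to 9254 (median 7558) in CT, 165 to 716 (median 317) in C26 and 223 to 2039 (median 395) in C26-CHO, with a log2 fold change of -4.66 ± 0.33 (SE) in C26 vs CT. Its value as a single gene is uncertain, since 22.2% of its 50-base stretches occur in another gene, 20.9% in Gm7208. Ces2e was 2610 to 3619 (median 3060) in CT, 475 to 851 (median 597) in C26 and 495 to 1275 (median 585) in C26-CHO, with a log2 fold change of -2.33 ± 0.15 (SE) in C26 vs CT. The C26 mean of Ces2a was 4.37% of its CT mean, while Ces2e had a mean of 621 ± 118 (SD, n = 8) in C26 and 3105 ± 397 in CT.

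Ces2c, another acylglycerol hydrolase, was the least abundant of the 10. Its normalised read count was 544 to 1077 (median 796) in CT, 9.40 to 53.5 (median 16.1) in C26 and 4.66 to 82.2 (median 12.9) in C26-CHO. The log2 fold change in C26 vs CT was -5.46 ± 0.38 (SE). Its value as a single gene is uncertain: 42.2% of its 50-base stretches occur in another gene, 38.2% in the pseudogene Ces2d-ps, which fell by 5.44 on the log2 scale. The ratio of Ces2c to Ces2d-ps was 2.16 ± 0.0632 (SD, n = 8) in CT and 2.34 ± 0.488 in C26.

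Ces3a, the second most abundant of the 10 in CT per kb of exon, had a smaller fitted fall in C26 vs CT than the other 9, except under quantile normalization, where Ces2e (-2.20) and Ces1b (-2.24) had smaller ones. It was 44180 to 52955 (median 47162) in CT, 8497 to 14439 (median 10729) in C26 and 12037 to 26648 (median 13221) in C26-CHO. The log2 fold change in C26 vs CT was -2.15 ± 0.14 (SE), and the mean went from 48061 ± 3117 (SD, n = 8) in CT to 11034 ± 2420 in C26. It shares 30.9% of its 50-base stretches with its neighbour Ces3b, which fell by 1.41 ± 0.12 (SE) on the log2 scale.

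**Figure D2:**
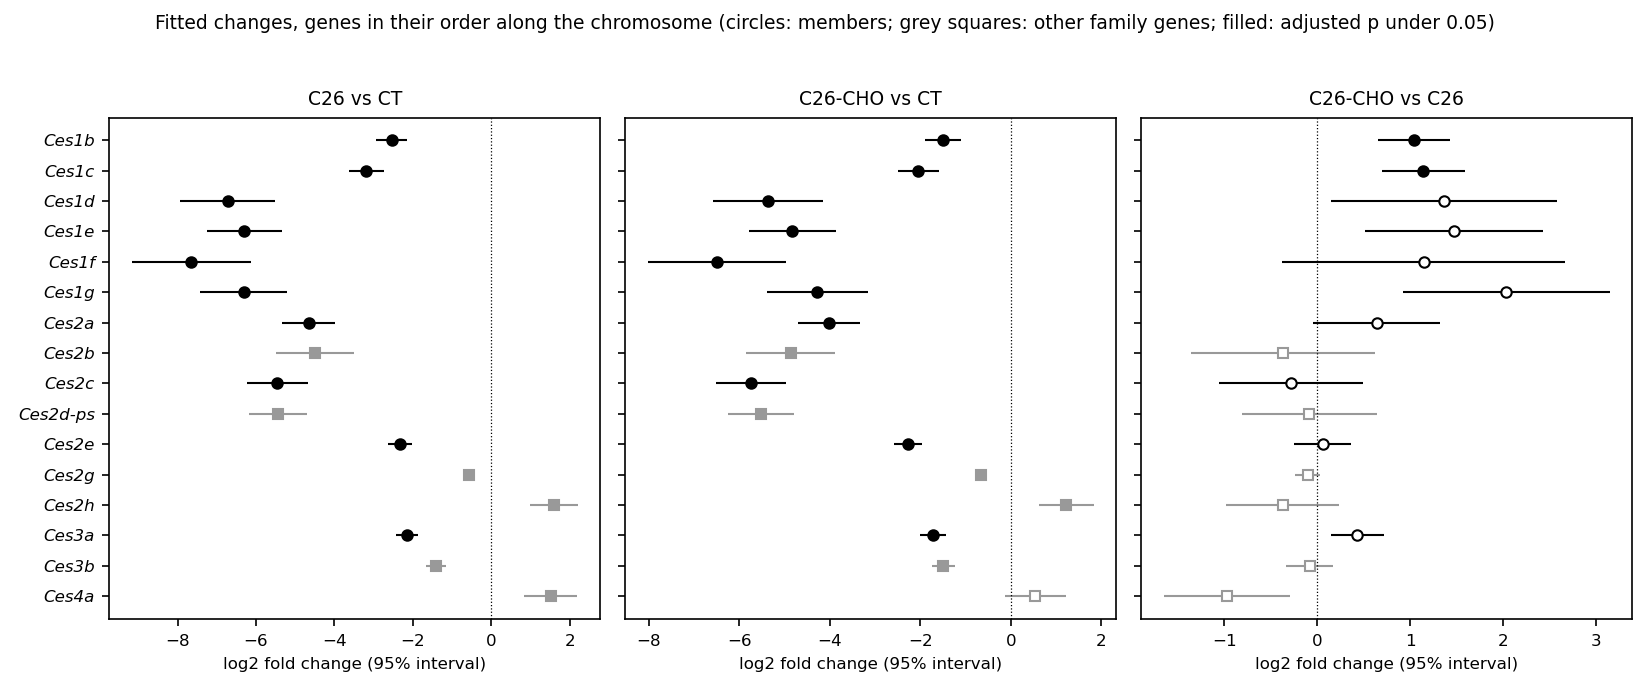
Log2 fold change with 95% interval (limma) of the tested carboxylesterase genes in C26 vs CT, C26-CHO vs CT and C26-CHO vs C26, in their order along the chromosome; circles are the 10 genes described, grey squares other family genes, filled symbols adjusted p under 0.05. Ces1d, Ces1e, Ces1f and Ces1g lie farthest to the left in C26 vs CT (-6.30 to -7.64); in C26-CHO vs C26 Ces1b (1.04) and Ces1c (1.14) are the only filled symbols. The 3 panels have different horizontal scales.

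The unequal fall was tested on the ratio of 2 genes in each liver, which no scaling of a library changes except through the added count of 1. The mean log2 ratio was compared by exact permutation, two-sided, for all 45 pairs in the 3 comparisons, with Benjamini-Hochberg adjustment over the 135 tests; the smallest p it can give with 8 mice against 8 is 0.000155. In C26 vs CT the ratio differed for 41 of 45 pairs and did not overlap between the groups for 30. Pairs of other tested genes were not counted, so whether these counts are high for the liver as a whole was not tested. The log2 ratio of Ces1c to Ces1d was 2.22 ± 0.35 (SD, n = 8) in CT and 5.76 ± 0.94 in C26 (adjusted p = 0.000368, exact permutation). Ces1c also fell more than Ces1b: the plain ratio of Ces1c to Ces1b was 6.09 ± 0.493 in CT and 3.91 ± 0.462 in C26, without overlap (adjusted p = 0.000368 for the log2 ratio, exact permutation). The pairs that missed the threshold were Ces1b with Ces2e, Ces1d with Ces1g, Ces1e with Ces1g, and Ces2e with Ces3a, with adjusted p of 0.267, 0.145, 0.964 and 0.220 (exact permutation).

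The make-up of the carboxylesterase mRNA pool differed as well as its size. The summed share of the 10 genes in all reads was 0.0824% ± 0.0248 (SD, n = 8) in C26, against 0.802% in CT. Without C26 8 the C26 share was 0.0755% ± 0.0165 (SD, n = 7). Ces1d to Ces1g made up 20.9% ± 1.92 of the reads of the 10 genes in CT and 1.94% ± 1.97 in C26, where the range was 0.989% to 6.78% with C26 8 highest; without C26 8 the share was 1.24% ± 0.240 (SD, n = 7). Ces3a was 30.1% ± 0.950 of these reads in CT and 53.8% ± 4.48 in C26, and Ces1c and Ces3a together were 66.0% ± 1.62 and 85.3% ± 2.37. Per kb of exon, Ces3a (4200 ± 921) came before Ces1c (2877 ± 1084) in C26 livers, with overlap between the mice.

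**Figure D3:**
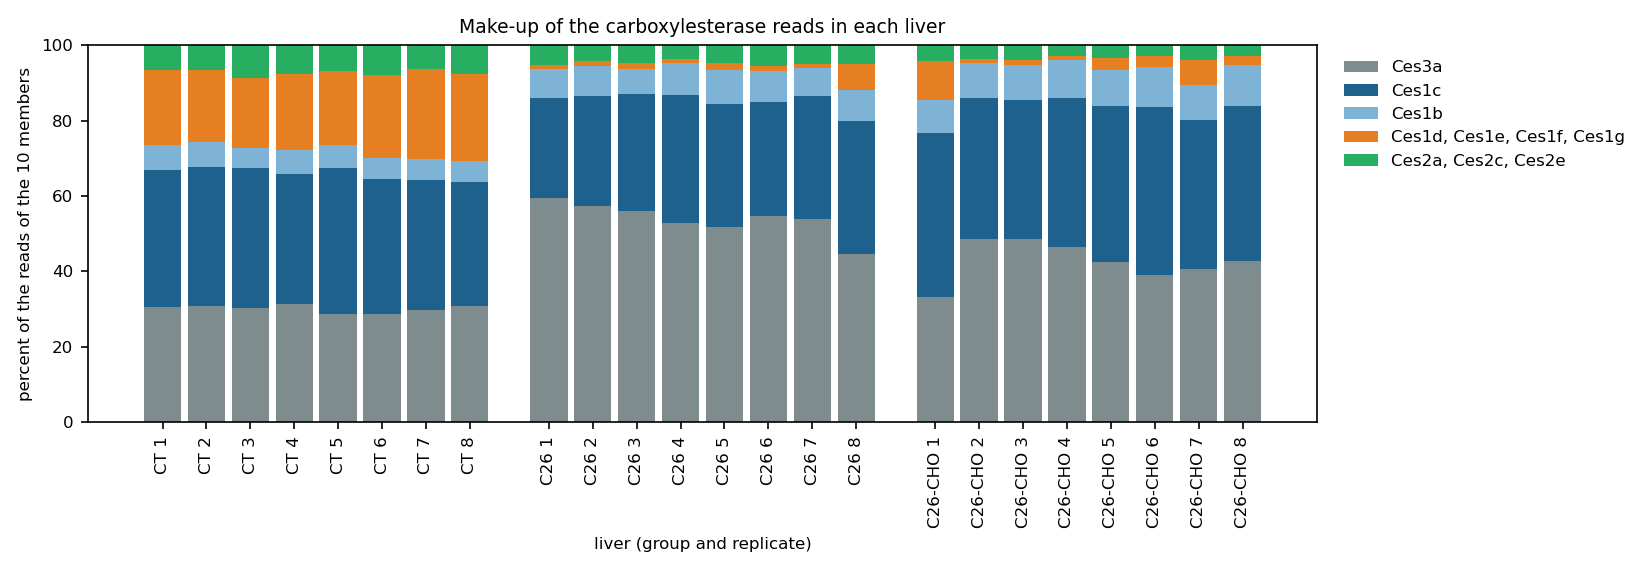
Percent of the reads of the 10 carboxylesterase genes that each gene or gene group took in each liver; bars are single mice and each adds to 100%. The segment of Ces1d to Ces1g is about 20.9% in CT and shrinks to 1.94% on average in C26, and Ces3a widens from 30.1% to 53.8%.

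Cholestyramine was compared with the untreated tumour in C26-CHO vs C26, which uses the same C26 livers as the comparison with CT. Ces1b and Ces1c rose: 2 of 10 genes were called higher and 0 lower, beside 0.556% of tested genes called higher and 0.15% lower. Ces1b had a log2 fold change of 1.04 (95% interval 0.65 to 1.43, adjusted p = 0.0129, limma), and 6 of 8 C26-CHO livers lay above the highest C26 liver. Ces1c had a log2 fold change of 1.14 (95% interval 0.69 to 1.59, adjusted p = 0.0155, limma), with 5 of 8 livers above every C26 liver. Both genes were above the C26 mean in 8 of 8 C26-CHO livers, and no gene of the 10 was free of overlap between the groups (0.0997% of tested genes were, on the higher side).

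Even so, the rise left both genes far from the CT level. The C26-CHO mean of Ces1b was 37.4% of CT and that of Ces1c 26.6%, or 32.2% and 21.7% without C26-CHO 1. The log2 fold changes in C26-CHO vs CT were -1.50 and -2.04. The intervals given for both genes in C26-CHO vs C26 rest on 1 spread per gene over all 24 libraries, CT included. Relative to their means, both genes varied least in CT. For Ces1b the SD was 12.73% of the mean in CT, 33.45% in C26 and 43.04% in C26-CHO. These intervals may therefore be too narrow. With only the C26 and C26-CHO livers in the fit, neither gene passed (adjusted p = 0.0752 for Ces1b and 0.0876 for Ces1c, limma). Without C26 8, C26-CHO 1 and C26-CHO 7, left out after the data were seen, both were called, with log2 fold changes of 0.92 and 1.00.

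Ces1d, Ces1e, Ces1f and Ces1g had positive log2 fold changes that did not pass. Ces1g had the largest, 2.03 (95% interval 0.92 to 3.14, adjusted p = 0.0773, limma), with 6 of 8 C26-CHO livers above the C26 mean. That of Ces1e was 1.47 (95% interval 0.52 to 2.43, adjusted p = 0.132). Without C26 8, in which these genes were highest of the C26 livers, both passed (adjusted p = 0.0274 for Ces1g and 0.0284 for Ces1e, limma). Without C26-CHO 1, neither passed, at 1.56 for Ces1g (adjusted p = 0.120, limma) and 1.10 for Ces1e (adjusted p = 0.260, limma). Ces1d was 1.36 (95% interval 0.15 to 2.58) and Ces1f 1.15 (95% interval -0.38 to 2.67). The value of Ces1f was 0.46 without C26-CHO 1 and 2.34 with edgeR, neither of them called (adjusted p = 0.875 and 0.208, limma and edgeR). For Ces1d, C26-CHO 2, 3 and 4 lay between 64.3 and 80.3 and the other 5 between 366 and 1766; the C26 livers other than C26 8 (929) lay between 61.2 and 105.

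No gene of the second block passed. Ces3a had a log2 fold change of 0.43 (95% interval 0.15 to 0.71, adjusted p = 0.132), and 8 of 8 C26-CHO livers were above the C26 mean. Ces2a was 0.64 (95% interval -0.05 to 1.32), Ces2e 0.06 (95% interval -0.25 to 0.37) and Ces2c -0.28 (95% interval -1.05 to 0.49). The intervals of Ces2a, Ces2c and Ces2e take in values on both sides of 0. Without C26-CHO 1, Ces3a was 0.31 and Ces2a 0.33, neither of them called (adjusted p = 0.228 and 0.747, limma). In all, 9 of the 10 genes had a positive value, with a median of 1.09 beside 0.00 for all tested genes, and 6 had an unadjusted p under 0.05, as did 1832 of the 14040 tested genes (13%). Of the 6 other tested carboxylesterase genes, 0 had a positive value (median -0.24), so the direction does not hold for the whole family.

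The difference between genes in their response to the resin was again tested on ratios. In C26-CHO vs C26 the log2 ratio differed for 17 of 45 pairs, again with no count over pairs of other genes. That of Ces1b to Ces3a was -2.73 ± 0.22 (SD, n = 8) in C26 and -2.12 ± 0.19 in C26-CHO, a difference of 0.61 (adjusted p = 0.000368, exact permutation). This was the 1 pair of the 45 whose groups did not overlap, with C26 livers from -3.06 to -2.43 and C26-CHO livers from -2.39 to -1.90. In CT the log2 ratio of Ces1b to Ces3a was -2.35 ± 0.11, and the C26-CHO mean lay above it (adjusted p = 0.0217, exact permutation). The log2 ratio of Ces1c to Ces3a rose by 0.71 (adjusted p = 0.000939, exact permutation). It was -0.07 in C26-CHO, still below the 0.26 of CT (adjusted p = 0.0110, exact permutation). Ces1b and Ces1c also rose relative to Ces2e, by 0.98 (adjusted p = 0.000939) and 1.08 (adjusted p = 0.000699), both by exact permutation. The ratio of Ces1b to Ces1c differed by -0.10 between these groups and missed the threshold (adjusted p = 0.220, exact permutation). Without C26 8, C26-CHO 1 and C26-CHO 7 the difference for Ces1b to Ces3a was still 0.61 and that for Ces1c to Ces3a 0.69, and neither pair overlapped.

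**Figure D4:**
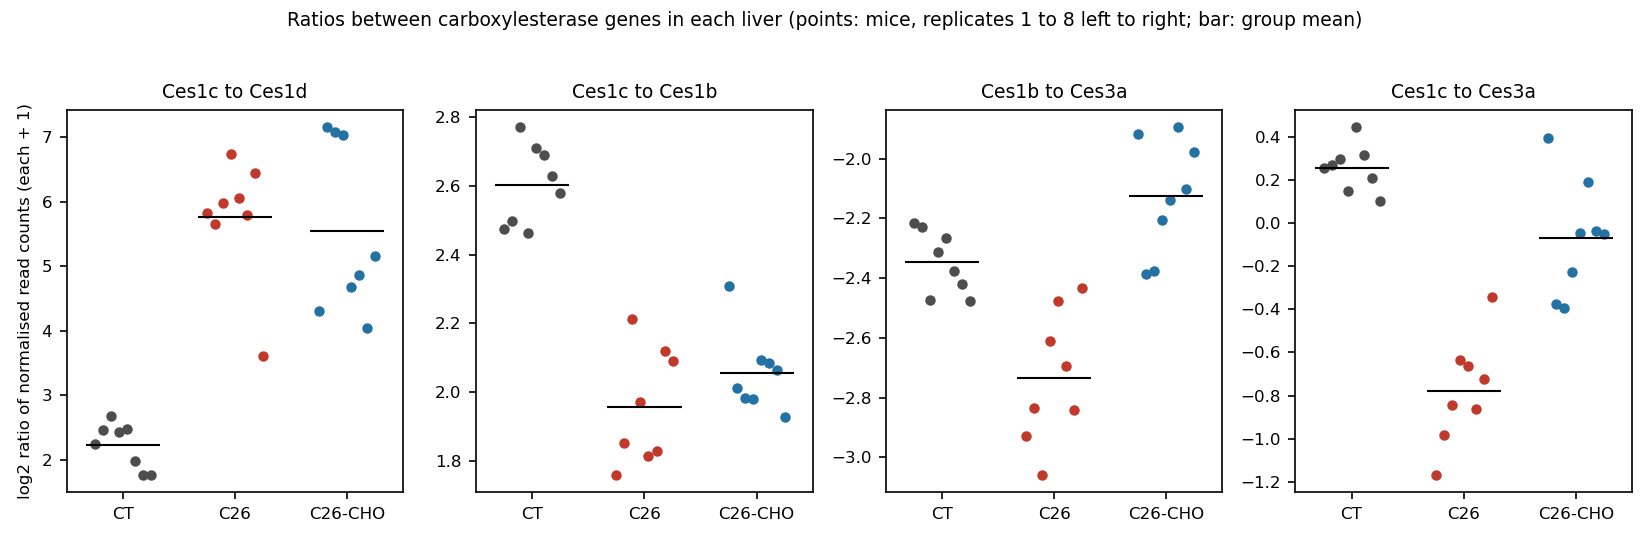
Log2 ratio of the normalised read counts (each plus 1) of 4 pairs of carboxylesterase genes in CT, C26 and C26-CHO livers; points are mice and bars are group means. Ces1c to Ces1d is 2.22 in CT and 5.76 in C26, and Ces1b to Ces3a separates C26 (-3.06 to -2.43) from C26-CHO (-2.39 to -1.90).

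In the pool of the 10 genes, Ces1b and Ces1c held 34.3% to 43.5% of the reads in C26 livers and 46.3% to 55.1% in C26-CHO livers, without overlap. These 2 genes are the ones called higher in this comparison, so their larger share than in C26 is no separate support. In CT livers the 2 genes held 38.5% to 44.9%, so every C26-CHO liver also lay above every CT liver in this share. Their mean normalised read counts stayed at 37.4% and 26.6% of CT. The share depends on the rest of the pool too, of which Ces1d to Ces1g held 20.9% in CT. Ces1d to Ces1g held 3.64% ± 3.29 (SD, n = 8) of the pool in C26-CHO, with C26-CHO 1 highest at 10.4%, and 2.68% ± 2.01 (SD, n = 7) without it. The summed share of the 10 genes in all reads was 0.154% ± 0.0897, which ranged from 0.0961% to 0.368%, again with C26-CHO 1 highest. Without C26-CHO 1 this share was 0.123% ± 0.0251 (SD, n = 7).

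The same livers were often the highest of their group. C26 8 was the highest C26 liver for 9 of the 10 genes and the next after the highest for Ces3a. C26-CHO 1 was the highest of its group for 10 of 10, and C26-CHO 7 followed it for 9. In C26-CHO 1 the normalised read count of Ces1f was 2993, while the other 7 C26-CHO livers lay between 20.1 and 498. Its summed markers of cholangiocytes (2571) and of neutrophils (194) were the lowest of the C26-CHO livers, which reached 9845 and 540. CT livers ranged from 511 to 853 and from 40.8 to 80.2. Such sums can rest on a few abundant markers and do not measure the number of cells. Some other sums of C26-CHO 1 lay away from CT. Its hepatocyte markers (874642) were below the C26-CHO median of 944275, and CT livers had 1684870 or more. Its intestinal epithelium markers (790) were the lowest of the group, with 1544 or more in CT. Its Kupffer cell and macrophage markers (11196) were above the group median of 10436, with at most 6983 in CT. Those of sinusoidal endothelial cells (6823) and of T and B cells (152) lay within the CT range. None of the 8 cholangiocyte or 10 neutrophil markers was at 0 in all livers of a group, and the part of these cells in the result was not tested.

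**Figure D5:**
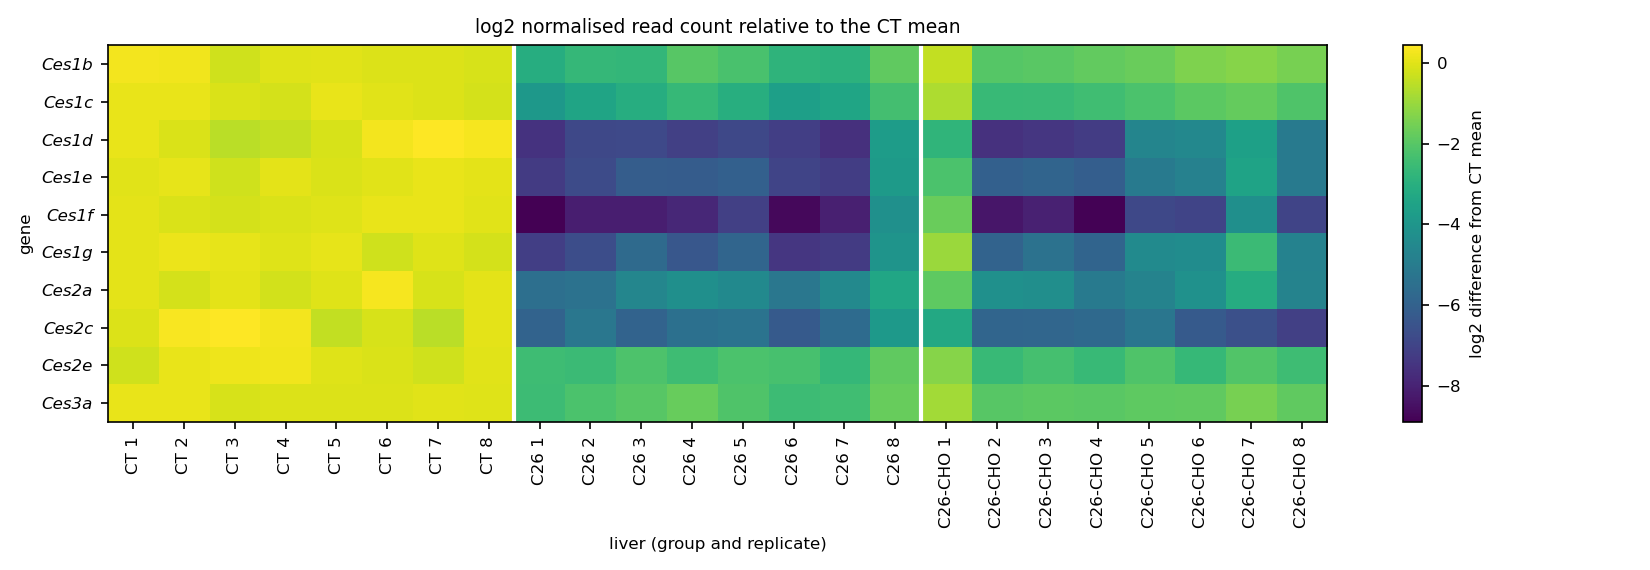
Difference of log2 (normalised read count plus 1) from the CT mean for the 10 carboxylesterase genes (rows) in each of 24 livers (columns), by colour. C26 8, C26-CHO 1 and C26-CHO 7 are lighter, that is nearer to CT, than most tumour-bearing livers, and the darkest cells are in Ces1f.

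Not every carboxylesterase fell. Of the other family genes in the table, 6 were tested; in C26 vs CT 4 were called lower (Ces2b, Ces2d-ps, Ces2g and Ces3b) and 2 higher, beside 32.9% of tested genes called lower and 33.3% higher. Ces2b had a mean normalised read count of 43.3 ± 38.1 (SD, n = 8) in CT and 0.971 ± 2.29 in C26, and Ces2g fell by 0.56 on the log2 scale. Ces2h and Ces4a, named after their values were seen, rose by 1.60 and 1.51. Both were low: Ces2h had a mean of 12.5 ± 6.29 in CT and 34.5 ± 4.91 in C26, and Ces4a 71.6 ± 35.2 and 193 ± 53.9. Ces2h had 3 to 23 reads in a CT library. Thus Ces2e (-2.33), Ces2g (-0.56) and Ces2h (1.60), which lie in this order on the same strand, span a fall and a rise, the rise in a gene with few reads. The nearest tested genes outside the blocks, 3 on each side of each block, ranged in log2 fold change from -0.95 (Pdp2) to 0.48 (Mmp2) in C26 vs CT. In C26-CHO vs C26, Pdp2 was called higher (0.56, adjusted p = 0.0117, limma). In C26-CHO vs C26, none of the 6 other carboxylesterase genes was called, and 0 had a positive value (median -0.24). Of these, 1 had an unadjusted p under 0.05, beside 13% of tested genes: Ces4a, at -0.97. Ces3b was -0.08 (95% interval -0.34 to 0.17) where Ces3a was 0.43.

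Hydrolases outside the family were counted in the same fit, in which 32.9% of tested genes were called lower and 33.3% higher. Of 14 tested hydrolases and cofactors of neutral lipid and cholesteryl ester breakdown, 9 were called lower and 0 higher in C26 vs CT, with a median log2 fold change of -0.64. Lipc, the hepatic lipase, fell by 4.41; Mgll, which splits monoacylglycerol, by 1.71; Aadac, an esterase of the same compartment, by 1.61; and Abhd6 by 1.03. Of 15 other ester and xenobiotic hydrolases, 11 were called lower and 0 higher (median -0.65), among them the epoxide hydrolases Ephx1 (-4.06) and Ephx2 (-2.15), the paraoxonase Pon1 (-1.65) and the fatty acid amide hydrolase Faah (-1.32). In C26-CHO vs C26, Pon1 was called higher (0.57, adjusted p = 0.0208, limma), and no other gene of either list was called.

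Of 10 tested genes for retention and folding in the endoplasmic reticulum, 8 were called higher and 0 lower in C26 vs CT (median 0.47), beside 33.3% of tested genes called higher. Among the 8 were the chaperones Hspa5 (1.52) and Calr (1.30), and the disulphide isomerases Pdia3 (1.00) and P4hb (0.78). None of the 10 was called in C26-CHO vs C26. Of 24 transcription factors of liver lipid and xenobiotic genes, 5 were called higher and 9 lower in C26 vs CT (median -0.09), beside 33.3% and 32.9% of tested genes. Nr1i3, the constitutive androstane receptor, fell by 3.00, Esrra by 1.41 and Nfe2l2, known as NRF2, by 0.89, while Stat3 rose by 1.73. None of the 24 was called in C26-CHO vs C26, where Nr1i3 was 0.83 (adjusted p = 0.151, limma).

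To find genes that varied with the family from mouse to mouse, each gene's deviation from its group mean was compared with the mean deviation of the 10 genes over the 24 livers. The 5 genes most alike were Apol9a (Pearson r = 0.956), Inmt (0.950), Akr1c6 (0.944), Ugt1a9 (0.939) and Hsd3b2 (0.937). Without C26-CHO 1 they were Apol9a (0.922), Inmt (0.920), Apol9b (0.916), Akr1c6 (0.895) and Cyp2c37 (0.884). Without C26 8 as well, Apol9b came first (0.904), followed by Pgrmc1 (0.892) and Cyb5a (0.891). Within the family, Ces1e followed the mean most closely (0.987, and 0.978 without both livers), whereas Ces2c went from 0.691 to -0.11. The points share libraries and depth, the members form part of their own mean, and these values are a description.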

How the data were processed

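Liver RNA of 24 mice was sequenced. Per the submitters' processing notes, bcl2fastq 2.17, FastQC, Trimmomatic 0.38, STAR 2.6.1d (GRCm38) and DESeq2 1.22.2 were used; for the counting tool, annotation and strand setting, the method is not given in the sources used here. The authors deposited a normalized signal: read counts per gene scaled by 1 size factor for every library. Values were whole multiples of 1 step per library for 100% of values (tolerance 0.001 reads), so the counts were recovered, 19.91 M to 30.5 M per library.

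Log2(value + 1) was fitted with limma 3.58.1 in R 4.3.3 (lmFit, eBayes with trend), with all 24 libraries in 1 fit and no covariate. Genes with a mean of at least 10 were tested (14040), two-sided, with Benjamini-Hochberg adjustment in each comparison, and called at an adjusted p under 0.05. Values are mean ± SD over 8 mice or log2 fold change ± SE. In data simulated for C26 vs CT over 14042 genes, 100% of genes changed by 3 and 96% of genes raised by 1 on the log2 scale were called. The spread in all simulated libraries was taken from the CT livers. Relative to their means, the 10 genes varied more in C26 and C26-CHO livers than in CT. The simulated shares therefore do not tell how often a change in these genes would be called. The fit took 1 spread per gene over all 24 libraries. For the 10 genes, its intervals and p-values in C26-CHO vs C26 may thus be too small. The tests on ratios of 2 members were added after the data were seen. edgeR 4.0.16 and DESeq2 1.42.0 on the recovered counts, other pseudocounts, filters, scalings and left-out libraries were alternatives.

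The members and the lists were chosen with earlier results of these data known. All members are named, with up to 4 genes of smallest p in C26 vs CT per list and the 5 genes most alike. Sequences are from RefSeq; windows of Ces1d, Ces1f and Ces3a were not analysed here.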

Additional observations from a re-analysis of the deposited data

Results flagged for a closer look

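In 8 of 33 sets of 8 livers (the 10 genes and their sum, in 3 groups) the highest liver stood apart from the rest on the log2 scale by a gap larger than Dixon's 95% limit of 0.526 of the range. Chance flags about 1 in 20 such groups, and the genes are not independent of each other. In C26, the liver C26 8 stood apart in Ces1d (929), Ces1e (511), Ces1f (512) and Ces2c (53.5). In C26-CHO, the liver C26-CHO 1 stood apart in Ces1c (34985), Ces2e (1275), Ces3a (26648) and the sum of the 10 genes (80421). No CT liver stood apart in any of them.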

How the results depend on the processing

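Each of the 10 genes was called lower in C26 vs CT and in C26-CHO vs CT under all 11 other settings and with each of the 24 libraries left out. The size of the falls moved with the setting. For Ces1f in C26-CHO vs CT it ranged from -7.7 to -4.30 under the 11 other settings. In C26-CHO vs C26 the calls moved. With only the 2 groups in the fit, 0 members (from 2), 10 genes of all (from 99) and 0 genes of the 5 lists (from 1) were called. DESeq2 called 332 genes of all and 6 of the lists. Without C26 8 and C26-CHO 1, 4 members (Ces1b, Ces1c, Ces1e and Ces1g) and 2 list genes were called, and without C26-CHO 7 as well, 4 members and 46 genes of all; both settings were chosen after the data were seen. Leaving out 1 library gave 2 to 4 members, 23 (without C26-CHO 7) to 273 (without C26-CHO 3) genes of all and 0 to 5 list genes. The median log2 fold change of the members was then 0.67 (without C26-CHO 1) to 1.20 (without C26 8), and their adjusted p was at most 0.0410 for Ces1b and 0.0428 for Ces1c. Ces1g was also called by edgeR (adjusted p = 0.0415) and DESeq2 (adjusted p = 0.0024). Ces2c turned positive with edgeR (0.16 with either scaling) and DESeq2 (0.068), and Ces2e negative without C26-CHO 1 (-0.082, the lowest with 1 library left out; the highest was 0.13), without C26 8 and C26-CHO 1 (-0.014) and without C26-CHO 7 as well (-0.065); none of these was called, and the cause was not tested. With the 20 highest genes out of the total, the 10 genes took 0.980% of reads in CT and 0.134% in C26. Pairs of members with a changed ratio numbered 14 to 20 in C26-CHO vs C26 when 1 library was left out. The replicate numbers did not pair the mice: same-numbered livers correlated at r from -0.20 to 0.25, and 5 of 24 matched their own number best. With a replicate block, 10 members were called against CT in each tumour group and 2 in C26-CHO vs C26, where 97 genes of all (from 99) were called. Low counts limit Ces2c, which had as few as 4 reads in a library.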
